A study of Homo sapiens with 12 samples.

Results

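Cholesterol and fatty acid synthesis was followed through 30 genes, taken by their symbols from a list of enzymes and regulators and found as 30 of the 23368 gene symbols counted. Cells make sterols and isoprenoids from acetyl-CoA through the mevalonate pathway, which ends in farnesyl pyrophosphate, and a second set of enzymes carries that product through squalene and lanosterol to cholesterol. Fatty acids are built from the same precursor by ATP citrate lyase, acetyl-CoA carboxylase and fatty acid synthase, and are then elongated, desaturated and activated. Transcription of both branches is governed by the sterol regulatory element-binding proteins SREBP-1 and SREBP-2, which the chaperone SCAP escorts out of the endoplasmic reticulum when sterols are low and which the INSIG proteins retain there when sterols are plentiful. The genes were grouped as 7 of the mevalonate pathway, 9 of the steps from squalene to cholesterol, 5 of the SREBP system, 8 of fatty acid synthesis and STARD4, a sterol transport protein.

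RNA was measured in MDA-MB-231 cells, an estrogen receptor negative basal breast cancer line, and in T47D cells, an estrogen receptor positive luminal A line, after 3 days in synthetic poly(ethylene glycol) matrices. All were of the lower and softer of the study's 2 matrix densities. The matrices carried either GFOGER, a peptide that mimics collagen, or IKVAV, a peptide that mimics laminin. For MDA-MB-231 cells there were 3 GFOGER and 2 IKVAV libraries, and for T47D cells 3 of each, so that 4 conditions and 11 libraries were compared. Each library came from 3 gels pooled after digestion with collagenase. Each cell line stands for 1 tumor, and the remaining sample, MDA-MB-231 with IKVAV replicate 3, was omitted by the study as an outlier and was not analysed here. Libraries held between 14338238 and 18452145 counts. A single library stood apart from its replicates in 2 conditions. MDA-MB-231 GFOGER replicate 3 differed from replicates 1 and 2 by a chi-square per gene of 16.4 and 18.6, where these differed from each other by 2.51, and T47D IKVAV replicate 3 differed from its replicates by 17.9 and 16.9, where these differed by 5.50. The labels held, since VIM, which encodes vimentin, was at 1435 to 2418 cpm (counts of a gene per 1000000 counts of its library, scaled by TMM factors) in MDA-MB-231 libraries and 3.72 to 5.29 cpm in T47D libraries, whereas ESR1, the estrogen receptor, was at 0.519 to 0.797 cpm and 257 to 317 cpm. Markers of other cells were not uniformly absent. Of the 4 fibroblast genes listed, COL1A1 was the most abundant, at 155 to 284 counts in MDA-MB-231 and 884 to 1045 counts in T47D libraries, COL1A2 and LUM reached 87 and 50 counts, both in MDA-MB-231 cells, and DCN at most 5. Of the 4 immune and endothelial genes, PECAM1 and CD14 were at 144 to 237 and 139 to 187 counts in MDA-MB-231 libraries and at most 8 in T47D libraries, whereas PTPRC and CDH5 reached at most 10 counts in any library. Of the 5 adipocyte genes, LPL was at 24 to 48 counts in MDA-MB-231 libraries, ADIPOQ at 0 there and at most 20 in T47D libraries.

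Before any change is considered, the genes were expressed at very different levels. Divided by coding length as RPKM (scaled cpm per kilobase, computed here), ACLY, the ATP citrate lyase that supplies acetyl-CoA, was highest of the 30 in MDA-MB-231 cells, at 103 RPKM with GFOGER and 87.3 RPKM with IKVAV. SCD, the stearoyl-CoA desaturase that makes monounsaturated fatty acids, was highest in T47D cells, at 280 RPKM with GFOGER and 202 RPKM with IKVAV. HSD17B7, a ketoreductase of the late sterol steps, was the lowest of the 30 in every condition, between 2.80 and 3.63 RPKM, and its pseudogene HSD17B7P2 held 16 to 30 counts per library, so reads of the pair may be split.

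Promoter sequence was examined for letters that the SREBP system and its partners are known to bind. Of the 30 genes, 26 had entries in the RefSeq promoter table of GRCh38.p14, with 35 windows of 300 bases (250 before to 50 after a start). ACAT2, FDFT1, SQLE and FASN had no entry. The letters CCAAT, the box bound by NF-Y, were found on either strand in 62.9% of these windows and in 34.6% of the table's 35116 windows. GGGCGG, the GC box of Sp1, was found in 88.6% against 45.0%, CACGTG, an E-box, in 8.57% against 7.26%, and TCACNCCAC, a sterol regulatory element form, in 2.86% against 1.13%. A match is only a description of the letters. The table's windows were not matched to the members in level or base composition. Some members had more than 1 window, and windows of a gene could overlap, as those of ACLY do. The upstream 250 bases are shown for 4 members, MVK and NSDHL with 5 CCAAT matches each, SCD with 2, and SREBF2, the only member of the 26 whose window held TCACNCCAC. Each was found once on its chromosome in hg19, on the plus strand, at chr12:110011349-110011598 for MVK, chrX:151999357-151999606 for NSDHL, chr10:102106740-102106989 for SCD and chr22:42228859-42229108 for SREBF2. Capitals mark CCAAT, its reverse complement ATTGG, and TCACNCCAC, and the NSDHL window has a pair of matches that overlap.
MVK: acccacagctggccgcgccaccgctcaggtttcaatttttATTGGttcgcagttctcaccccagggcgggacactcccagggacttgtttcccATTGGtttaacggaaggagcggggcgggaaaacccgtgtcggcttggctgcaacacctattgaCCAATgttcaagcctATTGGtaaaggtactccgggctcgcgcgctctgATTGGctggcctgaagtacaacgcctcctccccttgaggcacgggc
NSDHL: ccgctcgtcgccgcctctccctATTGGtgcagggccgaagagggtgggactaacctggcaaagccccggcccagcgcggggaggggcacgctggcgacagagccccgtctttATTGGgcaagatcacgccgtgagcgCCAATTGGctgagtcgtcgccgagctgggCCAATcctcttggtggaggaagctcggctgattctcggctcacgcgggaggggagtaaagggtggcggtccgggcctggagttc
SCD: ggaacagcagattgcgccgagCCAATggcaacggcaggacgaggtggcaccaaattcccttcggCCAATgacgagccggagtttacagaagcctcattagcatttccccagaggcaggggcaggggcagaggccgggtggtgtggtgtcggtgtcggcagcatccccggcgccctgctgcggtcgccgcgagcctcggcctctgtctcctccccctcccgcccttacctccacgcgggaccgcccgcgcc
SREBF2: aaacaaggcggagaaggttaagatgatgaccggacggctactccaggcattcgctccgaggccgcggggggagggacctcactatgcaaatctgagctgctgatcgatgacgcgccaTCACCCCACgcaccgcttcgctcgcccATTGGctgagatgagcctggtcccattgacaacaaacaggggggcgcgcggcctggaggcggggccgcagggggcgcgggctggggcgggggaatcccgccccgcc

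In MDA-MB-231 cells, 8 of the 16 enzymes of the sterol branch were higher with the collagen mimic and 1 lower, and of the 8 genes of fatty acid synthesis 1 was higher and 4 lower. Of the 30 genes, 16 changed between GFOGER and IKVAV (edgeR's quasi-likelihood test, Benjamini-Hochberg adjusted p below 0.05, n = 3 and 2), 9 higher with GFOGER and 7 lower. Of all 14092 genes tested, 42.9% changed, 21.4% higher and 21.4% lower, so the share of members that changed was near that of the transcriptome. Of the 30, 3 were over 2-fold, where 9.57% of all genes were both changed and over 2-fold. The libraries of the mimics did not overlap for 23 of the 30 (63.2% of all genes tested), with GFOGER above in 16 (32.5% of all genes) and below in 7 (30.7%). The median log2 fold change was 0.16 over the members and 0.00 over all genes. Single libraries decided part of these calls, among the members and among all genes. Of the 16 sterol enzymes, the 8 higher became 4 without IKVAV replicate 1, 3 without IKVAV replicate 2, 5 without GFOGER replicate 1, 6 without GFOGER replicate 2 and 11 without GFOGER replicate 3, the MDA-MB-231 library that stood apart. Of all genes tested, 13.1%, 11.2%, 17.5%, 18.8% and 29.1% were higher in these fits, in the same order. HMGCS1, SQLE, ACLY and FASN each passed in 1 of these 5 fits. Marker genes moved with the mimic too. All 4 markers of the line itself rose with GFOGER (VIM, CAV1, MSN and AXL, summed level 5365 ± 298 against 3169 ± 30.9 cpm, mean ± SD), with AXL the largest at 1.42 on the log2 scale. The 3 fibroblast genes tested fell (summed level 13.3 to 17.6 cpm against 24.5 and 24.7 cpm), and of the 2 immune and endothelial genes tested PECAM1 fell and CD14 did not pass (summed level 16.4 to 19.4 cpm against 24.4 and 25.6 cpm). Of the 5 markers of T47D cells, CDH1, which encodes E-cadherin, fell by 0.97 on the log2 scale (SE 0.26, adjusted p = 0.00594), at 2.29, 2.59 and 2.45 cpm with GFOGER and 5.51 and 4.04 cpm with IKVAV, and the other 4 did not pass. Of the 8 heat shock and stress genes, HSPA1A and HSPA1B, near-identical copies between which reads may be split, fell by 0.38 and 0.48 on the log2 scale and the other 6 did not pass. The part of these markers and stress genes in the results was not tested. In bulk RNA, fewer cells that express a gene and less of its RNA per cell cannot be told apart.

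All 7 genes of the mevalonate pathway had positive fold changes, and 5 rose. Their summed level was 386 ± 15.1 cpm with GFOGER (SD, n = 3) and 280 ± 5.74 cpm with IKVAV (SD, n = 2). ACAT2 (chr6:160182989-160200087 in hg19), the acetyl-CoA acetyltransferase that joins acetyl-CoA units at the entrance of the pathway, was at 57.2, 54.5 and 54.0 cpm with GFOGER and at 21.5 and 25.7 cpm with IKVAV. The libraries did not overlap, and ACAT2 rose by 1.22 on the log2 scale (SE 0.13, adjusted p = 1.11e-06), the largest increase of the 30. The gene TCP1, a chaperonin subunit, shares 558 bases with ACAT2, and was at 209 to 244 cpm with GFOGER and at 158 and 170 cpm with IKVAV; the strand setting of the counting was not stated, and the part of the shared bases was not tested.

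MVK (chr12:110011500-110035071), the mevalonate kinase, was at 18.9, 15.4 and 22.7 cpm with GFOGER and 11.2 and 10.7 cpm with IKVAV, a rise of 0.79 (log2, SE 0.17, adjusted p = 0.00136). FDPS, the farnesyl pyrophosphate synthase, was at 99.6, 95.4 and 99.7 cpm against 77.5 and 68.3 cpm, and rose by 0.42 (SE 0.10, adjusted p = 0.0032). PMVK, the phosphomevalonate kinase, rose by 0.38 on the log2 scale (SE 0.13, adjusted p = 0.0306). HMGCS1, the synthase of hydroxymethylglutaryl-CoA, rose by 0.35 (SE 0.12, adjusted p = 0.024). Over the 5 fits that leave out 1 library, PMVK ranged from 0.25 to 0.54 and did not pass in each. The remaining pair, the decarboxylase MVD at 0.23 and the isomerase IDI1 at 0.25 on the log2 scale, did not pass the test (adjusted p of 0.188 and 0.103).

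Among the 9 genes from squalene to cholesterol, 3 rose and 1 fell. NSDHL (chrX:151999511-152037907), which removes carbons from the sterol nucleus, was at 48.0, 42.6 and 47.6 cpm with GFOGER and 33.7 and 26.8 cpm with IKVAV, and rose by 0.60 (log2, SE 0.13, adjusted p = 0.00127). CYP51A1, the lanosterol demethylase, rose by 0.43 (SE 0.11, adjusted p = 0.00544), from 52.8 and 54.9 cpm with IKVAV to 77.5, 75.2 and 66.0 cpm. SQLE, the squalene epoxidase, was close among replicates, at 27.7, 28.4 and 28.1 cpm against 22.0 and 21.5 cpm, and rose by 0.36 (SE 0.12, adjusted p = 0.0288). TM7SF2, a sterol reductase, went the other way, from 23.7 and 20.9 cpm with IKVAV to 15.3, 15.8 and 17.9 cpm with GFOGER, and fell by 0.46 on the log2 scale (SE 0.14, adjusted p = 0.0139). FDFT1, the squalene synthase, and EBP, an isomerase of the sterol nucleus, had log2 fold changes of 0.26 and 0.24 and did not pass (adjusted p of 0.0544 and 0.0726), and LSS, HSD17B7 and DHCR7 lay between −0.19 and 0.11. STARD4, which carries sterols between membranes, had a log2 fold change of 0.36 with an adjusted p of 0.0532, also short of the threshold.

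Of the 5 genes of the SREBP system, 2 fell and 3 did not pass the test. SREBF1 (chr17:17714663-17740325), which encodes SREBP-1, was at 52.5, 48.6 and 64.9 cpm with GFOGER and 124 and 127 cpm with IKVAV. It fell by 1.19 on the log2 scale (SE 0.11, adjusted p = 5.54e-07), and the lowest IKVAV library was well above the highest GFOGER library. The neighbouring gene RAI1, which shares 103 bases with SREBF1, was at 79.5, 69.3 and 101 cpm with GFOGER and 132 and 141 cpm with IKVAV, and the part of shared reads was not tested. SREBF2, which encodes SREBP-2, the form that acts mainly on sterol genes, was at 94.0, 90.2 and 114 cpm against 111 and 116 cpm (log2 fold change −0.20, adjusted p = 0.152), with the IKVAV libraries within or just above the range of the GFOGER libraries. INSIG2 fell by 0.44 (SE 0.13, adjusted p = 0.00949), from 43.0 and 39.7 cpm to 33.0, 31.8 and 26.9 cpm. INSIG1, itself a target of SREBPs, had a log2 fold change of 0.21 (adjusted p = 0.12), and SCAP of −0.11 (adjusted p = 0.426).

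Of the 8 genes of fatty acid synthesis, 1 rose and 4 fell. Their summed level was 1658 ± 88.7 cpm with GFOGER (SD, n = 3) and 2007 ± 0.177 cpm with IKVAV (SD, n = 2). SCD (chr10:102106772-102124588) was at 180, 173 and 177 cpm with GFOGER and 397 and 399 cpm with IKVAV, and fell by 1.18 on the log2 scale (SE 0.08, adjusted p = 1.28e-08), the smallest adjusted p of the 30. FADS2, the desaturase that starts the conversion of essential fatty acids to long polyunsaturated ones, was at 123, 121 and 145 cpm against 203 and 220 cpm, and fell by 0.71 (SE 0.10, adjusted p = 2.6e-05). ACSL3, an acyl-CoA synthetase that activates fatty acids, was at 125, 126 and 118 cpm against 171 and 167 cpm and fell by 0.47 (SE 0.09, adjusted p = 0.000571). FASN, the fatty acid synthase, was spread over 283, 273 and 386 cpm with GFOGER against 397 and 400 cpm, with replicate 3 close to the IKVAV libraries, and fell by 0.35 (SE 0.12, adjusted p = 0.0213). ACLY, the gene at the head of the branch and a supplier of the sterol branch too, rose by 0.24 (SE 0.08, adjusted p = 0.028). ACACA, ELOVL6 and FADS1 had log2 fold changes of 0.02, −0.05 and 0.11 and did not pass. Of the 16 changed genes, ACAT2, ACSL3, FADS2, MVK, SCD and SREBF1 passed in each of the alternative fits, each of the 5 libraries left out included. The count of 16 depended on single libraries. It was 10 without GFOGER replicate 1 (35.4% of all genes tested), 12 without GFOGER replicate 2 (37.6%), 24 without GFOGER replicate 3 (57.5%), 8 without IKVAV replicate 1 (26.9%) and 9 without IKVAV replicate 2 (23.9%). The share of all genes that changed was lowest in the fits with 8 and 9 changed members and highest in the fit with 24.

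**Figure D1:**
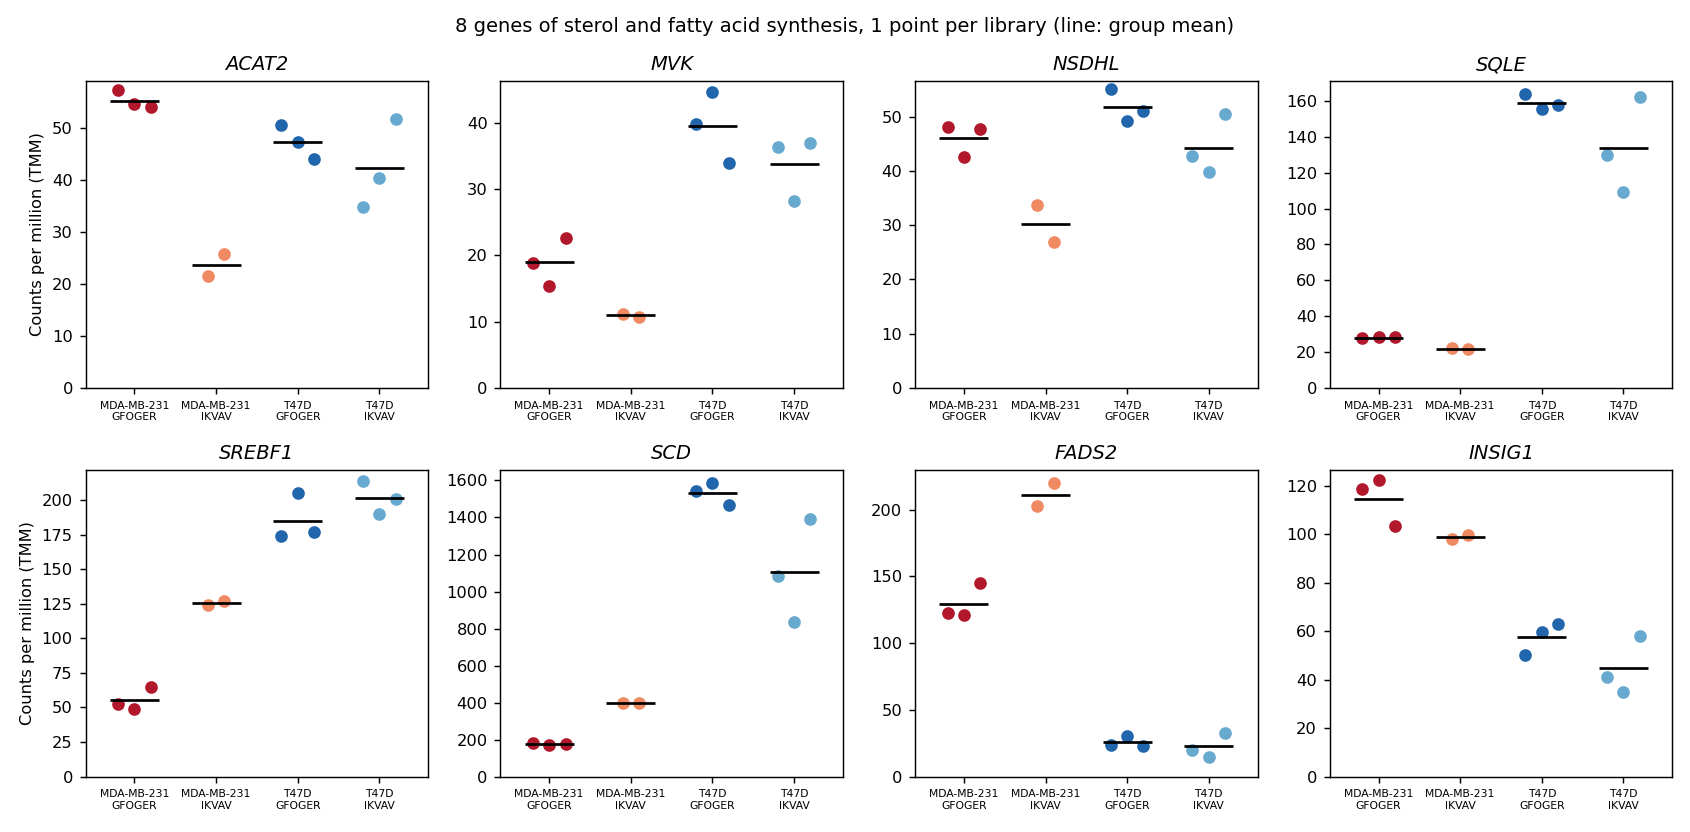
Level in cpm (vertical axes, from 0) of 8 genes in the 11 libraries of the 4 conditions, with 1 point per library and a line at the group mean. ACAT2, MVK and NSDHL of MDA-MB-231 cells were higher with GFOGER and SREBF1, SCD and FADS2 lower, and T47D IKVAV replicate 3 (rightmost point) lay above the other T47D IKVAV libraries for SCD, INSIG1 and SQLE.

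In T47D cells, 0 of the 30 genes changed between the mimics by edgeR's quasi-likelihood test (n = 3 and 3), where 0.0440% of all 13642 genes tested changed and 0.0220% were also over 2-fold. At an unadjusted p below 0.05 there were 10 members, where 11.2% of all genes tested were. DESeq2 called 0 of the 30, and limma voom with library weights called 15, where it called 11.1% of all genes tested. Of the 30, 28 fold changes were positive, with a median of 0.17 against 0.00 over all genes tested. The libraries of the mimics did not overlap for 6 members, each with GFOGER above, where 16.0% of all genes tested did not overlap and 8.31% had GFOGER above. SCD was at 1542, 1587 and 1470 cpm with GFOGER and 1083, 835 and 1391 cpm with IKVAV, a log2 fold change of 0.48 (SE 0.14, adjusted p = 0.226). ELOVL6, an elongase of saturated and monounsaturated fatty acids, was at 25.5, 21.3 and 26.4 cpm against 16.8, 17.3 and 20.5 cpm (log2 fold change 0.42, SE 0.13, adjusted p = 0.256). INSIG1 was at 50.3, 59.5 and 63.0 cpm against 41.2, 35.0 and 58.1 cpm, MVD had a log2 fold change of 0.36 (adjusted p = 0.254), and SREBF1 of −0.12 (adjusted p = 0.639).

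Replicate 3 stood apart among the T47D IKVAV libraries. For 23 of the 30 genes, replicate 3 was above both of the other IKVAV libraries and for 5 below both, where 38.6% of all genes tested were above and 39.6% below. It lay within the range of the GFOGER libraries for 13 of the 30, above it for 8 and below it for 9, against 36.9%, 31.1% and 32.0% of all genes tested. FDFT1 was at 327, 307 and 317 cpm with GFOGER and at 238, 224 and 337 cpm with IKVAV, so that replicate 3 was above the GFOGER libraries. SQLE was at 164, 155 and 158 cpm against 130, 109 and 162 cpm, and IDI1 at 222, 193 and 227 cpm against 177, 168 and 237 cpm. Over the 16 enzymes of the mevalonate pathway and of the steps to cholesterol, the median log2 deviation from the mean of the cell line's conditions was −0.16 and −0.29 in IKVAV replicates 1 and 2, 0.11 in IKVAV replicate 3, and 0.06 to 0.13 in the GFOGER libraries. Without IKVAV replicate 3, 16 of the 30 genes were higher with GFOGER and 0 lower (edgeR, n = 3 and 2), where 7.62% of all genes tested changed and 2.91% were higher. These included SCD at 0.67 (adjusted p = 6.02e-05), INSIG1 at 0.60 (adjusted p = 0.00141), EBP at 0.47 (adjusted p = 0.00084), FDFT1 at 0.45 (adjusted p = 0.000557) and FDPS at 0.44 (adjusted p = 0.00176), each on the log2 scale. Leaving out any other single T47D library gave 0 changed members.

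Other measures of these libraries moved with the same split. HSPA8, a constitutive heat shock protein and the most abundant of the 8 heat shock and stress genes listed, was at 3787 and 4199 cpm in T47D IKVAV replicates 1 and 2, 2061 cpm in replicate 3, and 1713 to 1896 cpm in the GFOGER libraries. The summed level of those 8 genes was 5397, 5856 and 3598 cpm in the IKVAV libraries and 3163 to 3435 cpm in the GFOGER libraries. HSPA8 made up most of that sum. Of the 8 genes, 6 lay above the mean of the cell line's conditions in IKVAV replicates 1 and 2, and 2 in replicate 3. ATF3 went the other way, at 315, 329 and 593 counts in IKVAV replicates 1, 2 and 3. HSPA5 was at 16582, 18783 and 20335 counts there. The RPKM values deposited beside the counts imply library totals of 5191201 to 5774966 reads in 5 libraries and of 19898878 to 22840524 in the other 6, and T47D IKVAV replicate 3 shares the low totals with the T47D GFOGER libraries, whereas IKVAV replicates 1 and 2 have the high totals. With the set of totals as a term in the fit, 0 members changed, where 2.53% of all genes tested did. Then 18 of the 30 fold changes were positive and their median was 0.02, but this term leaves IKVAV replicate 3 alone to carry the contrast. The part of stress genes and of whatever sets the totals in the T47D values was not tested.

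**Figure D2:**
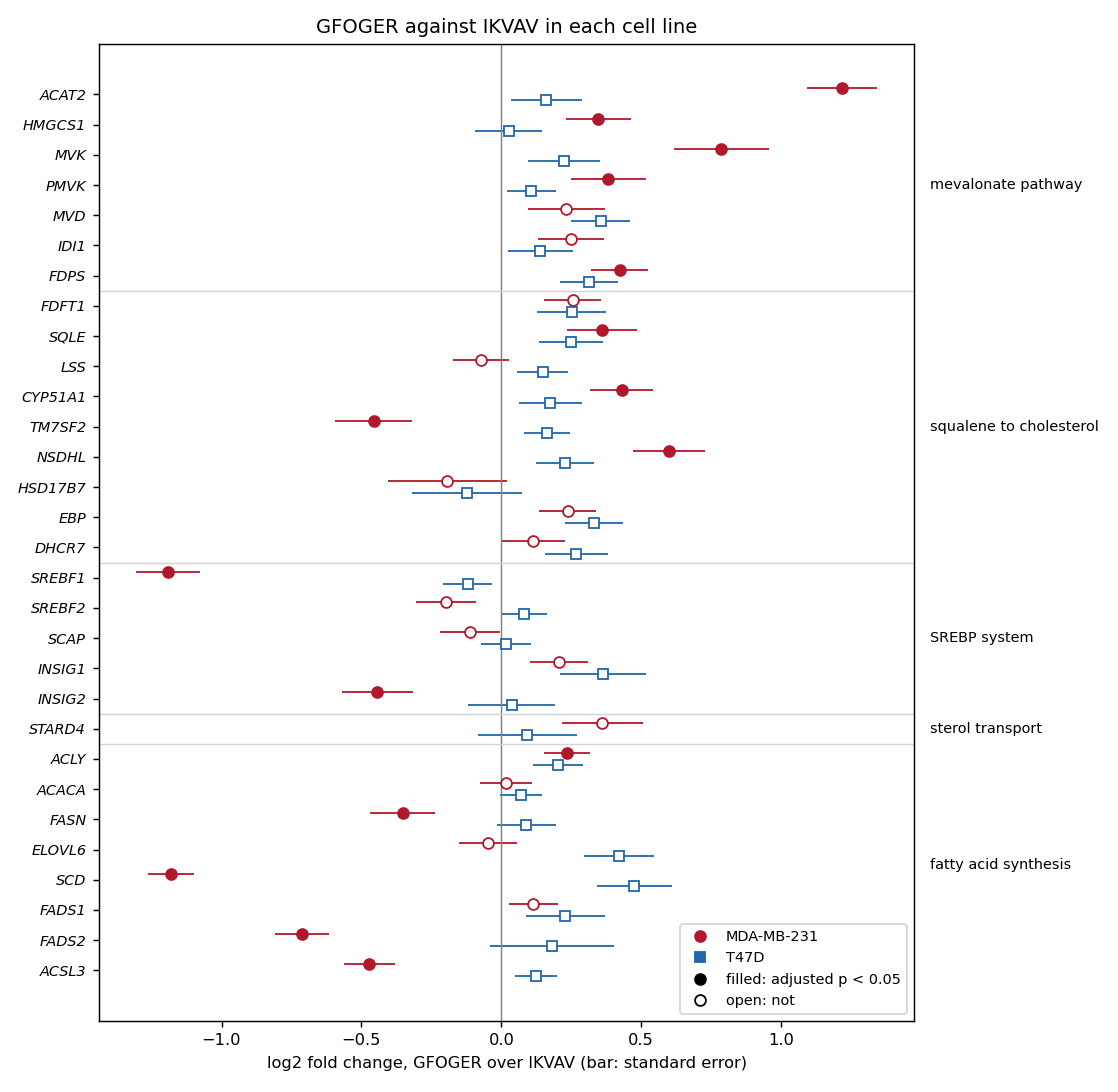
Log2 fold change of GFOGER over IKVAV (horizontal axis, bars are standard errors) for the 30 genes by role in MDA-MB-231 (circles, n = 3 and 2) and T47D cells (squares, n = 3 and 3), filled where the adjusted p was below 0.05. ACAT2 lies farthest right and SREBF1 and SCD farthest left in MDA-MB-231 cells, and all T47D symbols are open.

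**Figure D3:**
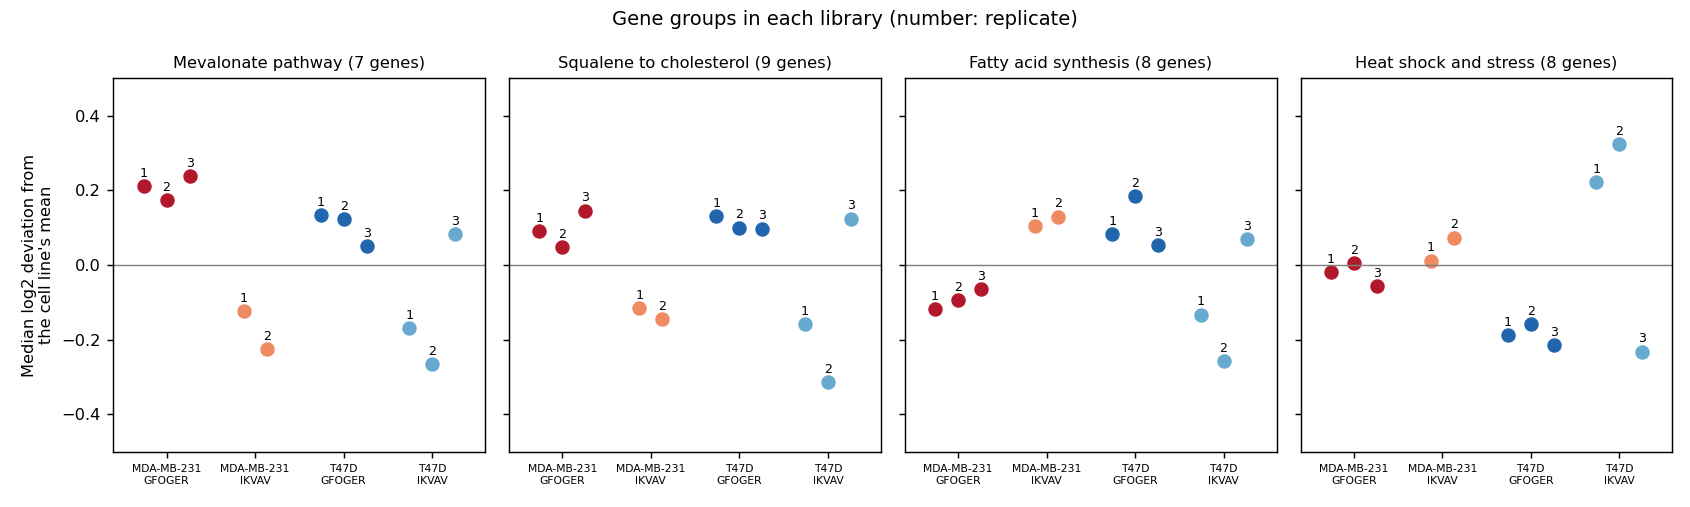
Median over each group's genes of the log2 deviation of each library from the mean of its cell line's conditions (vertical axis), with 1 point per library numbered by replicate. In the panels of synthesis genes T47D IKVAV replicates 1 and 2 lie below 0 and replicate 3 above 0, and in the panel of heat shock genes the positions are reversed.

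The response to the mimic was compared between the cell lines as an interaction in a fit of all 4 conditions, with the same libraries as above. Of the 30 genes, 7 differed (edgeR, adjusted p below 0.05, 11 libraries), 1 with a more positive response in MDA-MB-231 cells and 6 with a more negative one. Of all 15320 genes tested, 21.0% differed, 10.9% more positive and 10.2% more negative, so that the share of members that differed was near that of all genes, and 3 members were also over 2-fold, where 6.42% of all genes were. ACAT2 was the member with the more positive response, a difference of 1.07 in log2 fold change (SE 0.19, adjusted p = 0.000533). SCD had the largest difference, −1.65 (SE 0.18, adjusted p = 2.44e-06), since its fold change on that scale was −1.18 in the basal line and 0.48 in the luminal line. SREBF1 differed by −1.06 (SE 0.15, adjusted p = 5.83e-05), with −1.19 and −0.12 in the cell lines. FADS2, TM7SF2, ACSL3 and ELOVL6 had differences of −0.88, −0.61, −0.59 and −0.46, of which FADS2 passed in 7 and ELOVL6 in 3 of the 11 fits that leave out 1 library. By role, 4 of the 8 genes of fatty acid synthesis, 1 of the 7 of the mevalonate pathway, 1 of the 9 from squalene to cholesterol and 1 of the 5 of the SREBP system differed. The other 14 mevalonate and cholesterol enzymes did not pass, with differences from −0.21 for LSS (SE 0.14) to 0.57 for MVK (SE 0.22, adjusted p = 0.0764). MVK passed in 2 of the 11 fits that leave out 1 library and in 1 of 8 other settings. LSS and NSDHL, the latter at 0.38 (SE 0.17), each passed in 1 and HMGCS1 at 0.33 (SE 0.18) in 2 of the 8 other settings. Outside the sterol enzymes, FASN at −0.43 (adjusted p = 0.0901) passed in 2 of the 11 fits and 3 of the 8 settings. SREBF2 at −0.27 (adjusted p = 0.175) passed in 1 and 2 of these, and INSIG2 at −0.47 (adjusted p = 0.109) in 1 and 0.

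Between the cell lines, averaged over the mimics, all 7 mevalonate genes and 7 of the 9 genes from squalene to cholesterol were lower in MDA-MB-231 cells, of which ACAT2 was lower only with IKVAV, whereas the SREBP system and fatty acid synthesis held genes of either direction. In all, 26 of the 30 changed by edgeR's test on the 11 libraries, 6 higher in MDA-MB-231 cells and 20 lower. Of all genes tested, 84.5% differed, 42.0% higher and 42.5% lower, so that the share of members that differed was near that of the transcriptome. There were 18 over 2-fold, against 46.3% of all genes. The median log2 difference was −0.57 over the members and −0.01 over all genes. The mevalonate genes ranged from −0.31 for ACAT2 to −1.87 for MVD (SE 0.09). For ACAT2 the order of the lines turned with the mimic. Its 3 MDA-MB-231 libraries with GFOGER, at 54.0 to 57.2 cpm, were above the T47D ones at 44.1 to 50.6 cpm, and with IKVAV the MDA-MB-231 libraries, at 21.5 and 25.7 cpm, were below those of T47D at 34.8 to 51.7 cpm. The averaged difference of ACAT2 passed in 10 of the 11 fits with a library left out (adjusted p = 0.0675 without MDA-MB-231 IKVAV replicate 1) and in 6 of 8 other settings, where its adjusted p reached 0.119. Of the 9 genes from squalene to cholesterol, 7 were lower, led by TM7SF2, at 15.3 to 23.7 cpm in MDA-MB-231 libraries and 164 to 205 cpm in T47D libraries (log2 difference −3.21, SE 0.08, adjusted p = 7.28e-19). SQLE was at 21.5 to 28.4 cpm against 109 to 164 cpm (−2.56, SE 0.09, adjusted p = 4.51e-16), FDFT1 at −1.92 and DHCR7, the last reductase of the pathway, at −1.47, and LSS and HSD17B7 did not pass the test.

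The SREBP system was split between the lines. SREBF1 at −1.21 (SE 0.08) and SREBF2 at −0.76 (SE 0.07) were lower in MDA-MB-231 cells, whereas both retention proteins were higher, INSIG1 at 1.07 (SE 0.10) with 98.3 to 122 cpm against 35.0 to 63.0 cpm, and INSIG2 at 1.23 (SE 0.10) with 26.9 to 43.0 cpm against 12.1 to 18.7 cpm. SCAP did not pass the test (0.08, adjusted p = 0.324). STARD4 was higher in MDA-MB-231 cells (0.73, SE 0.12, adjusted p = 1.43e-05). Fatty acid synthesis was split as well. SCD at −2.29 (SE 0.10), FASN at −2.11 (SE 0.10), ACACA at −1.23 (SE 0.06) and ACLY at −0.46 (SE 0.06) were lower in MDA-MB-231 cells. SCD5, a further stearoyl-CoA desaturase outside the 30 and named here after its values were seen, had the opposite order, at 24.3 to 44.7 cpm in MDA-MB-231 and 0.136 to 0.417 cpm in T47D libraries. The elongase ELOVL6, at 122 to 147 cpm against 16.8 to 26.4 cpm, was higher by 2.73 (log2, SE 0.08, adjusted p = 2.63e-17). The desaturases FADS2, at 121 to 220 cpm against 14.8 to 32.9 cpm, and FADS1 were higher by 2.78 (SE 0.14) and 2.11 (SE 0.09), and ACSL3 did not pass (−0.01, adjusted p = 0.845). FADS1 and FADS2 are neighbours on chromosome 11, at chr11:61567097-61584529 and chr11:61595713-61634825 in hg19.

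**Figure D4:**
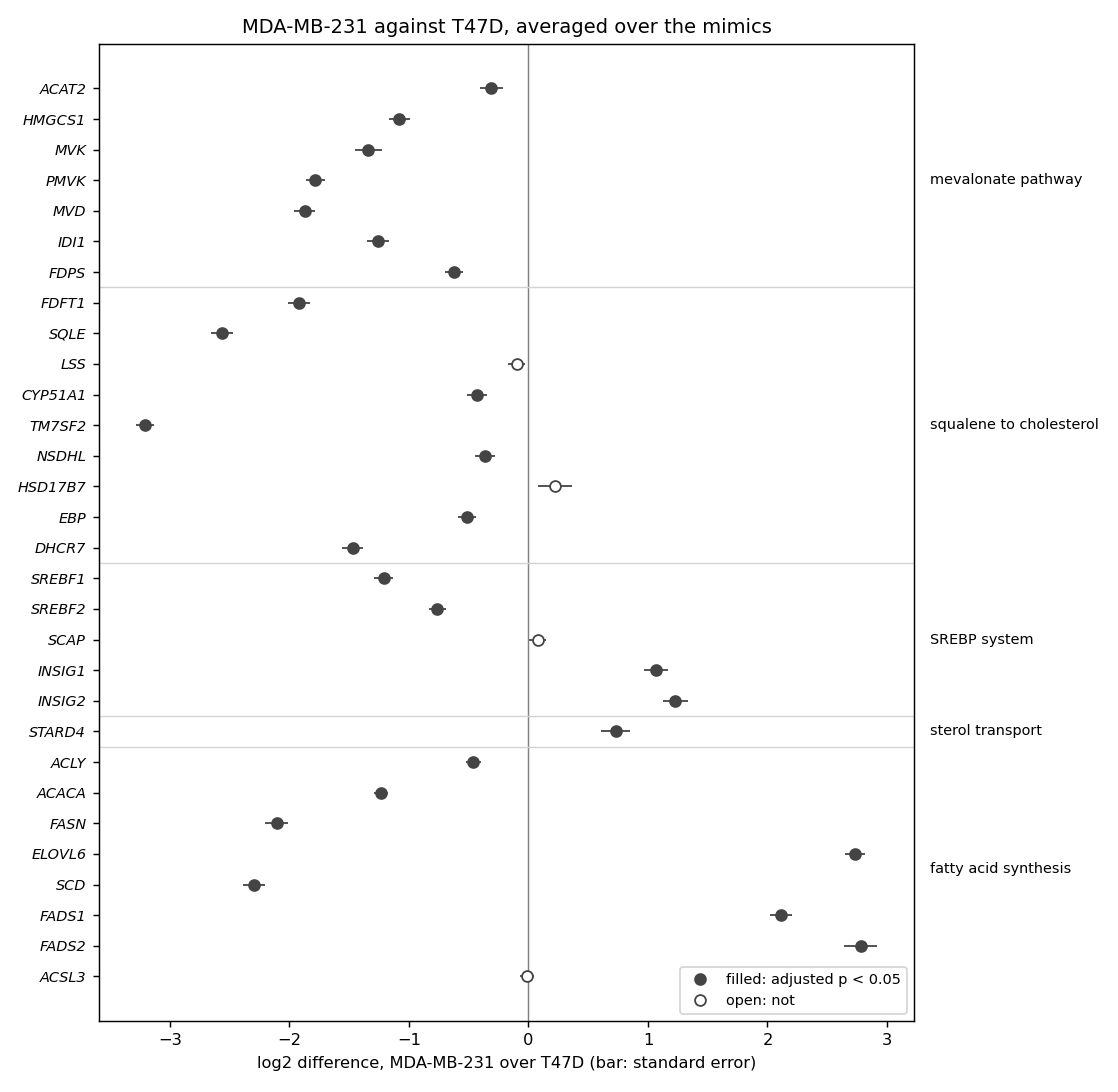
Log2 difference of MDA-MB-231 over T47D cells averaged over the mimics (horizontal axis, bars are standard errors) for the 30 genes by role, from 5 and 6 libraries, filled where the adjusted p was below 0.05. TM7SF2, SQLE, SCD and FASN lie farthest left and FADS2, ELOVL6 and FADS1 farthest right.

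Of the 19 genes of cholesterol uptake, storage and efflux, 18 were tested in MDA-MB-231 cells, and 4 were higher and 8 lower with GFOGER, where 21.4% of all genes tested were higher and 21.4% lower. NPC1, which exports cholesterol from lysosomes, was at 232, 229 and 228 cpm against 141 and 125 cpm and rose by 0.78 (log2, SE 0.09, adjusted p = 5.41e-06). ABCG1, a sterol efflux transporter, was at 1.26, 1.05 and 1.08 cpm against 7.45 and 5.67 cpm and fell by 2.53 (SE 0.27, adjusted p = 1.96e-06). MYLIP, a ubiquitin ligase induced by sterols that degrades lipoprotein receptors, was at 19.0, 18.5 and 22.4 cpm against 39.0 and 44.7 cpm and fell by 1.08 (SE 0.13, adjusted p = 6.74e-06). ABCA1, the partner efflux transporter, was named after its values were seen; it was at 98.0, 97.2 and 95.2 cpm against 195 and 199 cpm and fell by 1.03 (SE 0.09, adjusted p = 1.58e-07).

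Of 30 further synthesis genes, 26 were tested in MDA-MB-231 cells, 6 rose and 5 fell, and of 8 genes of SREBP processing 3 rose and 0 fell. Of 15 genes of fatty acid uptake, storage and oxidation, 13 were tested, 2 rose and 2 fell. The shares that changed in these 3 lists were at or below the 42.9% of all genes tested. PPARG, a nuclear receptor of lipid storage, was at 23.9, 20.5 and 20.0 cpm with GFOGER against 6.42 and 7.84 cpm with IKVAV and rose by 1.58 (SE 0.17, adjusted p = 1.48e-06), and FABP5, a fatty acid carrier, rose by 0.79 (SE 0.17, adjusted p = 0.00151). In T47D cells 0 genes of these lists changed by edgeR's test, with 7 of 26 further synthesis, 0 of 8 SREBP processing, 5 of 16 cholesterol handling and 1 of 12 fatty acid handling genes at an unadjusted p below 0.05, against 11.2% of all genes tested. The interaction was positive for NPC1 at 0.74 (SE 0.12), SOAT1, which esterifies cholesterol, at 0.71 (SE 0.15) and RNF139, an endoplasmic reticulum ubiquitin ligase, at 0.68 (SE 0.23). RNF139 passed in 4 of the 11 fits that leave out 1 library and was at 0.44 without T47D IKVAV replicate 3. The interaction was negative for ABCG1 at −2.44 (SE 0.27) and CYP27A1, a sterol hydroxylase, at −0.96 (SE 0.25).

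Some lipid genes were expressed in 1 of the cell lines and near 0 in the other. ACSL5, an acyl-CoA synthetase, was at 221 to 311 cpm in MDA-MB-231 libraries and 0.0594 to 0.543 cpm in T47D libraries (log2 difference 9.70, SE 0.14). FABP5 was at 7.26 to 13.9 cpm in MDA-MB-231 libraries and at most 0.0599 cpm in T47D libraries, where 3 counts correspond to about 0.2 cpm. The elongases ELOVL2 and ELOVL4, which act on long polyunsaturated and very long chains, were in T47D cells, at 26.9 to 44.9 cpm and 8.26 to 10.9 cpm, and at most 1.30 and 0.13 cpm in MDA-MB-231 cells, with a log2 difference of −6.46 (SE 0.24) for ELOVL2.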

How the data were processed

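RNA was sequenced by the authors with a stranded poly(A) kit as 51-bp single-end reads. According to the labels and methods, the authors trimmed with Trim Galore 0.4.4, aligned to hg19 with TopHat2 2.1.0 and counted with HTSeq, and used edgeR 3.16.5. The deposited table gives raw counts per gene without normalization and RPKM values made by the authors, from which only the library totals they imply were used here. The 1288 entries that repeat a symbol were left out of 24656. Counts were analysed in R 4.3.3 with edgeR 4.0.16 (TMM, filterByExpr, quasi-likelihood test, Benjamini-Hochberg adjustment over all genes tested, threshold 0.05), with limma 3.58.1 and DESeq2 1.42.0 as alternatives. Each cell line was fitted alone for the mimics, and the 4 conditions together otherwise. The fits were tested on simulated data.

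The members and lists were chosen with earlier results of these data known. The text names all members and, of the other lists, the 3 largest increases and decreases that passed in each comparison, of which 2 genes are not reported here. The labels do not say whether replicates came from separate cultures, so p-values measure the spread between libraries, which may be technical. No 2 libraries of a condition agreed within sampling noise (chi-square per gene 2.51 to 18.6, both extremes among the MDA-MB-231 GFOGER libraries). Same-numbered libraries did not deviate together, with correlations of −0.11 to 0.05.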

Additional observations from a re-analysis of the deposited data

Results flagged for a closer look

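For 7 of the 30 genes the response to GFOGER over IKVAV differed between MDA-MB-231 and T47D cells by the interaction test of edgeR on the 11 libraries, where 21.0% of all genes tested differed. The differences in log2 fold change were 1.07 for ACAT2 (SE 0.19, adjusted p = 0.000533), −1.65 for SCD (SE 0.18, adjusted p = 2.44e-06) and −1.06 for SREBF1 (SE 0.15, adjusted p = 5.83e-05). They were −0.88 for FADS2 (SE 0.27, adjusted p = 0.0234), −0.61 for TM7SF2 (SE 0.14, adjusted p = 0.00487), −0.59 for ACSL3 (SE 0.11, adjusted p = 0.000987) and −0.46 for ELOVL6 (SE 0.16, adjusted p = 0.0473). ACAT2, ACSL3, SCD, SREBF1 and TM7SF2 passed in each alternative fit of this test, and FADS2 and ELOVL6 did not. Conditions of 3 or fewer libraries were too small for a search for single outlying values.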

How the results depend on the processing

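The count of changed members kept within 1.5 times of 16 for the MDA-MB-231 mimics, 0 for the T47D mimics, 26 between the lines and 7 for the interaction under the other normalizations, DESeq2 and the fit of all 4 conditions, except as follows. With the library totals implied by the RPKM values as a term, 8 members changed in MDA-MB-231 cells, where 27.7% of all genes tested did. In each cell line this term leaves 1 IKVAV library to carry the contrast. The interaction with this term kept 7 members, 5 of them shared with the main fit. Of all genes, 20.2% differed in that fit. Of the 7 members, 3 were more positive and 4 more negative in MDA-MB-231 cells. The median difference over all members was then 0.08, against −0.10 in the main fit. In T47D cells 1 member changed with no filter on low counts and 15 with library weights. Leaving out 1 library at a time gave 8 to 24 changed members for the MDA-MB-231 mimics, 0 to 16 for the T47D mimics, 25 to 26 between the lines and 5 to 8 for the interaction. In the MDA-MB-231 fits 23.9% to 57.5% of all genes changed, in the T47D fits 0.00722% to 7.62%. Counts over 2-fold were then 3 to 3, 0 to 0, 17 to 18 and 2 to 3. Over the fits that kept at least 2 libraries in each condition, 26 members differed between the lines, where 83.2% to 84.7% of all genes did. For the interaction, 6 to 8 members differed in those fits, where 16.1% to 26.6% of all genes did. No called member changed its sign. With the replicate number as a block (replicate block), the libraries sharing only a number, 24 members changed for the MDA-MB-231 mimics (57.3% of all genes). The counts were 0 for the T47D mimics (0.279% of all genes), 25 between the lines (75.1%) and 9 for the interaction (25.6%). Of all genes in T47D cells, 6 changed in the main test, 121 with no filter, 1508 with library weights, 345 with the RPKM totals, 78 with DESeq2, 38 with the replicate block, 32 with all 4 conditions, 15 with robust dispersions, 9 with upper-quartile and 5 with library-size scaling. The choice of robust dispersions was added after the data were seen and gave the counts of the main test for the members. Where a library left out leaves 1 IKVAV library of MDA-MB-231 cells, that library is assumed to vary like the others.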
